A study of Mus musculus with 30 samples.

Results

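In 3T3-L1 cells taken 4 h into adipogenic differentiation, 1317 genomic intervals were listed for ATF2 and ATF7 and for none of the 7 other profiled transcription factors. They were chosen as identical 400 bp intervals on chromosomes 1 to 19 and X that both ATF lists held and the lists of cJun, FOSL2, JunB, KLF4, KLF5, RXR and VDR lacked. They are called ATF-only regions here. They made up 3.79% of the 34724 intervals of the series and 27.1% (95% exact interval 25.8 to 28.4) of the 4863 intervals listed for both ATF proteins. Of the other 3546 jointly listed intervals, 1308 were in 3 or 4 lists and 2238 in 5 or more. All intervals in 5 or more lists, with or without the ATF proteins, are called hotspots, and the series held 5623. The members were thus picked by the lists themselves, and their number is a description.

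ATF2 and ATF7 are closely related basic leucine zipper proteins. They bind DNA as homodimers, with each other or with Jun proteins, and are known for binding cyclic AMP response elements and for activation by stress-responsive kinases. cJun, JunB and FOSL2, which form the AP-1 factors, belong to the same structural class. KLF4 and KLF5 are zinc-finger proteins, VDR, the receptor for vitamin D, pairs with the nuclear receptor RXR.

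3T3-L1 is an established mouse fibroblast line that becomes fat cells under hormones. All 9 libraries came from cells past confluence given 1 μM dexamethasone (a glucocorticoid), 0.5 mM isobutylmethylxanthine (an inhibitor of cyclic AMP breakdown), insulin at 1 μg per ml and 10% FCS (calf serum), with no untreated library among them. Chromatin immunoprecipitation with sequencing gave 1 library per factor, so no comparison has a replicate check. The antibodies to ATF2 and ATF7 came from the same vendor, per the labels. The lists held 11547 intervals for ATF2, 7375 for ATF7 and between 5875 (KLF4) and 17120 (KLF5) for the others on these chromosomes. The files give no read numbers, so the depth is unknown, and an absent listing means only that an interval did not reach the authors' list.

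The first question was how often ATF2 and ATF7 were listed together without company. Of the 36 pairs of factors, ATF2-ATF7 had the highest share of jointly listed intervals with no further factor, 27.1%. The next was ATF2-KLF5 with 11.4% (580 of 5076), followed by RXR-VDR with 9.43% (746 of 7914), cJun-JunB with 8.80% (435 of 4945) and FOSL2-JunB with 7.66% (251 of 3277). At the other end, cJun-KLF4 intervals lacked a further factor in 0.261% of cases (6 of 2300). ATF-only regions were 18.96% of the 6948 intervals in exactly 2 lists. These shares depend on the lengths of all lists, which differ, and were not tested.

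Many ATF intervals without other factors held only 1 of the ATF proteins. Among the 2628 ATF7 intervals with none of the 7 other factors, ATF2 was listed at 50.1% (95% exact interval 48.2 to 52.0). With 1 other factor the share was 65.1% (62.4 to 67.7), with 4 it was 77.1% (73.3 to 80.7), and with all 7 it was 92.5% (89.9 to 94.5). In the other direction, ATF7 was listed at 28.8% (27.5 to 30.2) of the 4566 ATF2 intervals free of the other factors, at 42.2% (40.0 to 44.4) with 1 and at 78.8% (75.4 to 81.9) with all 7. These shares use the same listings as the rule and are a description. Their intervals cover counting error only.

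**Figure D1:**
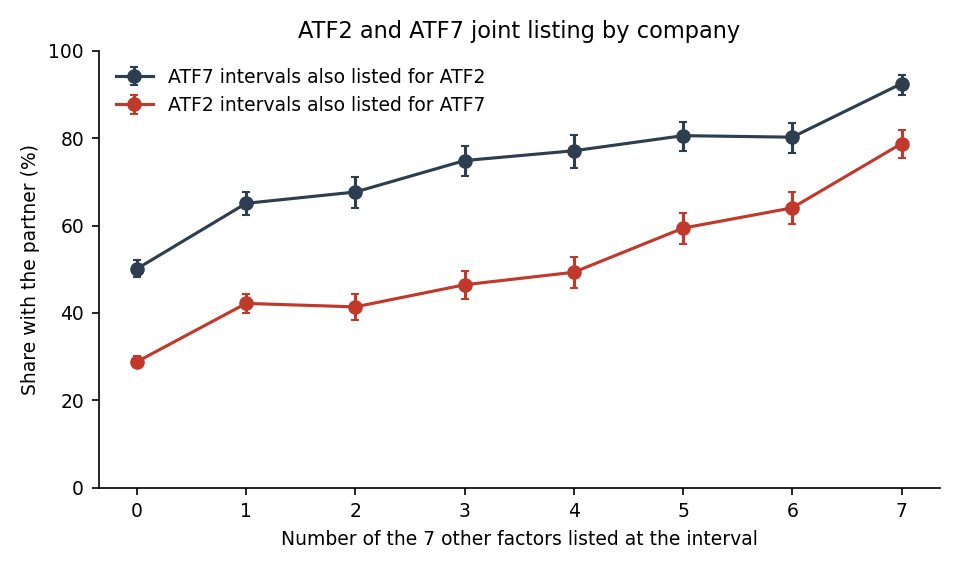
Share (%) of ATF7 intervals also listed for ATF2 (dark) and of ATF2 intervals also listed for ATF7 (red) against the number of the 7 other factors listed there; bars are 95% exact intervals. At 0, the ATF-only regions are 50.1% of the ATF7 intervals and 28.8% of the ATF2 intervals without other factors, and both series reach their highest value at 7 other factors.

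Just outside the rule lay 841 intervals with ATF2, ATF7 and a single further factor. KLF5, the longest list, was that factor at 381 of them and FOSL2, an AP-1 subunit, at 271, although its list was among the shorter ones. VDR accounted for 65, JunB for 45, RXR for 38, KLF4 for 33 and cJun for 8. Leaving out the KLF5 list would therefore raise the number of ATF-only regions to 1698, and leaving out the FOSL2 list would raise it to 1588.

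The lists carry no score, but their rows are not in order of position: in the ATF2 list, 6.28% of neighbouring rows were on the same chromosome. Intervals shared by any pair of lists stood in the same order in both, in 36 of 36 pairs. No source used here says what the order stands for, so a place in it is reported as a place and not as a strength of binding. Places are given as a percent of the rows, from 0 for the first to 100 for the last. Each difference has a 95% jackknife interval, made by omitting the 20 chromosomes one by one, which covers variation between chromosomes and not between cultures or antibodies.

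ATF-only regions stood late among the 4863 jointly listed intervals. Their median place was 69.7% (interquartile range 43.9 to 87.7), against 43.0% (20.6 to 67.7) for all other jointly listed intervals. The difference was 26.7 points (jackknife interval 23.2 to 30.2), and the ATF-only median was later on 20 of 20 chromosomes. Against jointly listed intervals in 3 or 4 lists (median 59.98%) the difference was 9.72 points (6.61 to 12.8). The median place moved forward with the number of lists at the top of the range, to 37.5% with 7 lists, 28.3% with 8 and 15.8% with all 9. Lower down it was not monotonic: it was 57.5% with 3 lists and 64.0% with 4.

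ATF-only regions were not confined to the late rows. The jointly listed rows were cut in order into 10 bins of equal size. The first bin held 61 ATF-only regions (12.6% of 486 intervals) and bin 2 held 50 (10.3% of 487). Bin 5 held 101 (20.7%), bin 8 held 178 (36.6%) and the last bin held 283 (58.2% of 486). Hotspots ran the other way, from 328 in the first bin to 33 in the last.

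**Figure D2:**
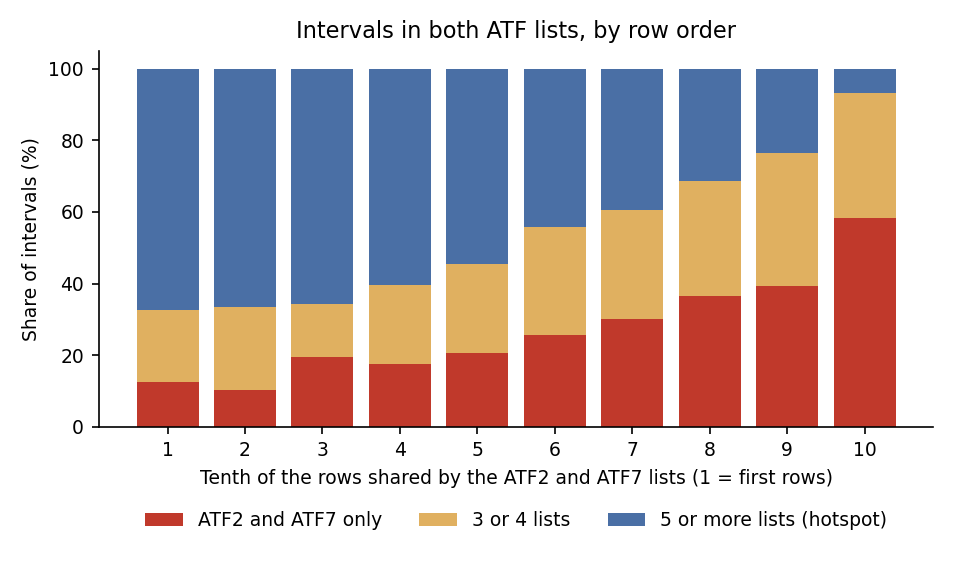
Composition (% of intervals) of 10 equal bins of the rows that the ATF2 and ATF7 lists share, first rows at left; red, ATF2 and ATF7 only; yellow, 3 or 4 lists; blue, 5 or more lists. The red share is 12.6% in the first bin and 58.2% in the last.

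Seen within each ATF list, the same regions stood early for intervals of so few factors. In the ATF2 list, ATF-only regions had a median place of 52.5%, against 76.8% for the 3249 intervals of ATF2 alone, a difference of -24.3 points (jackknife interval -26.6 to -22.0), with the same sign on 20 of 20 chromosomes. The 1152 intervals with ATF2 and 1 factor other than ATF7 stood at 65.2%, so ATF-only regions were earlier by 12.7 points at an equal number of lists (difference -12.7, -15.4 to -9.96, same sign on 19 of 20 chromosomes). In the ATF7 list the medians were 59.6% for ATF-only regions, 81.6% for the 1311 intervals of ATF7 alone (difference -22.1, -27.2 to -16.9) and 69.5% for the 451 with ATF7 and 1 factor other than ATF2 (difference -9.95, -16.0 to -3.92).

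By partner, most but not all other pairs stood later. ATF2 with KLF5 had a median place of 64.3% (n = 580), with FOSL2 66.8% (n = 225), with RXR 63.6% (n = 96) and with JunB 77.1% (n = 114) in the ATF2 list. ATF2 with VDR was at 48.6% (n = 100), ahead of the ATF-only regions. The same exception appeared in the ATF7 list, where ATF7 with VDR stood at 58.6% (n = 50) and with KLF5 at 72.2% (n = 175). Single pairs were not tested.

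The first ATF-only regions in row order were chromosome 9 3005726 to 3006125, chromosome 17 39981267 to 39981666 and chromosome 17 39985433 to 39985832 (mm9). They held places 2, 6 and 7 of the 4863 jointly listed rows. All 3 lay over 1000 kb from a hotspot, at 2258, 1029 and 1025 kb, but had another interval within 1.42 kb. The stretch on chromosome 17 held 5 intervals within 5352 bp. Both ATF proteins were listed at each of them, 3 of them with 1 further factor. The last ATF-only regions in row order were chromosome 6 115221861 to 115222260, chromosome X 84483504 to 84483903 and chromosome 2 164257158 to 164257557, at places 4860, 4861 and 4862. Gene annotation there was not used here. Whether the regions named in this report lie in repeated sequence was not checked, and no filter for it was applied here.

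The second question was where ATF-only regions lay relative to hotspots. Since a hotspot cannot be an ATF-only region, the comparison group was the 1308 jointly listed intervals in 3 or 4 lists. The median distance from an ATF-only region to the nearest hotspot midpoint was 98.8 kb (interquartile range 27.01 to 306.4 kb), against 58.2 kb in the comparison group, a difference of 40.5 kb (jackknife interval 15.8 to 65.3). Of the ATF-only regions, 12.7% (167; 95% exact interval 10.9 to 14.6) lay within 10 kb of a hotspot, against 20.0% (17.8 to 22.2). The background among all 29101 intervals in fewer than 5 lists was 18.1%. The difference from the comparison group was -7.27 points (jackknife interval -13.9 to -0.637), with ATF-only regions lower on 15 of 20 chromosomes. Against all other jointly listed intervals, hotspots included and each measured to the nearest other hotspot, the share was 26.6% and the difference -13.97 points (-18.7 to -9.19).

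Chromosome 10, where 48.4% of the comparison group and 22.9% of the ATF-only regions lay within 10 kb of a hotspot, carried much of this difference. Without it the difference was -4.44 points (-7.79 to -1.09), and without chromosomes 6 and 10, a choice made after seeing the data, it was -3.30 (-5.86 to -0.736). The jackknife interval included 0 without the FOSL2 list (-3.35, -7.75 to 1.05), without the KLF5 list (-6.34, -13.6 to 0.942) and against intervals in 3 lists only (-5.99, -13.8 to 1.87).

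Other kinds of sparse intervals were set beside them. All 5631 other intervals in exactly 2 lists had a median hotspot distance of 60.2 kb, 38.6 kb less than ATF-only regions (jackknife interval 17.1 to 60.04; longer for ATF-only regions on 19 of 20 chromosomes). The share within 10 kb was 19.2%, and the difference was -6.50 points (-9.45 to -3.55). VDR and RXR together without other factors lay at a median of 57.0 kb (difference 41.8 kb, 14.3 to 69.3). Among the 17 pairs with at least 100 such intervals, ATF2-ATF7 had the longest median, next to JunB-VDR with 96.3 kb (n = 122) and ATF2-VDR with 92.0 kb (n = 100). The shortest were ATF7-FOSL2 with 35.9 kb (n = 117) and KLF5-RXR with 37.8 kb (n = 629). Over all 36 pairs, ATF2-ATF7 ranked 4. Ahead of it were ATF7-KLF4 with 157 kb (n = 22), ATF7-VDR with 125 kb (n = 50) and JunB-KLF4 with 122 kb (n = 30). By the share within 10 kb, ATF2-ATF7 (12.7%) was not the lowest of the 17 pairs. Lower were JunB-VDR with 9.84%, ATF2-VDR with 12.0%, JunB-RXR with 12.2%, FOSL2-JunB with 12.4% and cJun-JunB with 12.6%.

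Against intervals of a single ATF protein, a difference was not resolved. The median hotspot distance was 80.1 kb for ATF2 alone (ATF-only regions longer by 18.7 kb, jackknife interval -0.204 to 37.6) and 84.3 kb for ATF7 alone (14.5 kb, -8.40 to 37.3). The shares within 10 kb were 15.7% and 14.6%, with differences of -3.05 points (-6.52 to 0.428) and -1.89 points (-6.04 to 2.26). Against ATF2 alone, ATF-only regions had the lower share on 12 of 20 chromosomes and the longer median distance on 12. Against ATF7 alone, they had the higher share on 12 of 20 and the shorter median distance on 11, opposite to the pooled direction. cJun and JunB without other factors had 12.6% within 10 kb (difference 0.0367 points, -3.96 to 4.04). These intervals do not show that the groups are alike.

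**Figure D3:**
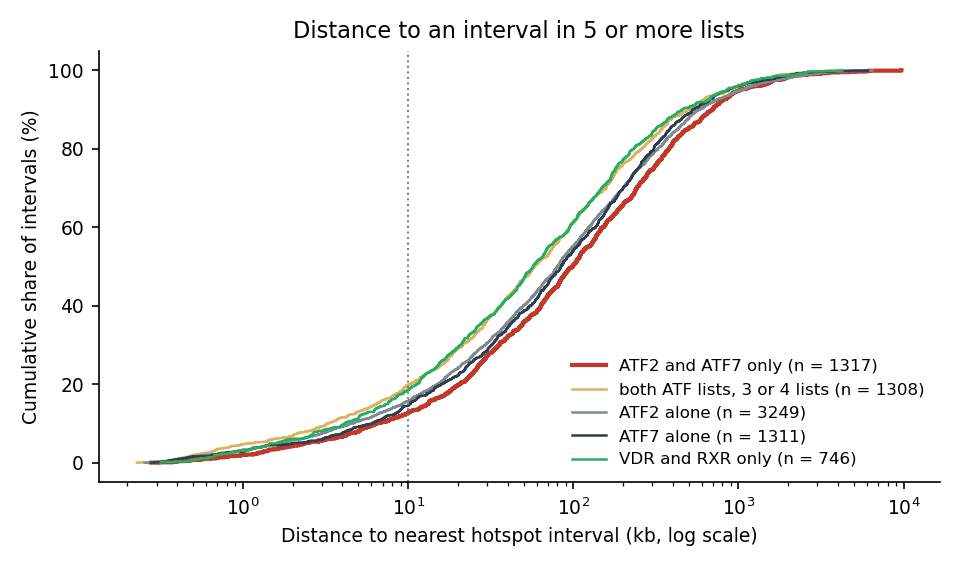
Cumulative share (%) of intervals against distance to the nearest hotspot midpoint (kb, log scale); the dotted line marks 10 kb. The curve of ATF2 and ATF7 only (red) lies to the right of that of the jointly listed intervals in 3 or 4 lists (yellow), with medians of 98.8 and 58.2 kb.

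Distance from a hotspot showed no steady change along the row order of the ATF-only regions. Cut in order into 4 equal parts, 13.3% of the first part lay within 10 kb of a hotspot, 10.3% of part 2, 13.4% of part 3 and 13.7% of the last. The median distances were 107, 112, 81.4 and 88.0 kb. The closest to a hotspot were chromosome 11 3023943 to 3024342, at 278 bp, chromosome 13 54691323 to 54691722, at 311 bp, and chromosome 3 151784607 to 151785006, at 372 bp, so that each overlapped it. The farthest were on chromosome X from 84483504 to 84483903, at 9704 kb, chromosome X from 91612166 to 91612565, at 6270 kb, and chromosome 17 from 95149236 to 95149635, at 6121 kb. In all, 68 ATF-only regions lay more than 1000 kb from a hotspot.

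The rule asked only for the absence of other factors at the identical interval, so their neighbourhood was examined next. At 38 ATF-only regions (2.89%) an interval of another factor overlapped by at least 1 bp, against 3.88% over all intervals and 4.36% in the comparison group. Within 10 kb, 47.3% (623; 95% exact interval 44.6 to 50.04) had an interval listed for 1 or more of the 7 other factors, against a background of 55.6% over all intervals. The comparison group in 3 or 4 lists had 54.6%, counting other intervals only, and the difference was -7.28 points (jackknife interval -12.1 to -2.48; lower on 14 of 20 chromosomes). Against all other intervals in exactly 2 lists it was -7.09 points (-12.5 to -1.71). Both differences are partly set by the rule. An interval of either group supplies another factor to a neighbour of its own kind, and an ATF-only region does not. Another interval of the same kind lay within 10 kb of 12.2% of the comparison group and 16.9% of the intervals in exactly 2 lists. For ATF-only regions the share was 9.64%. Against a single ATF protein the difference was not resolved: ATF2 alone had 49.6% (difference -2.28 points, -7.56 to 3.00) and ATF7 alone 49.3% (-1.97, -6.72 to 2.78).

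The factors differed in how often they were listed nearby. KLF5 was listed within 10 kb of 30.4% of the ATF-only regions, against 41.4% in the comparison group (difference -11.0 points, jackknife interval -15.5 to -6.43). RXR had 19.1% against 29.5% (-10.4, -16.1 to -4.69), and its receptor partner VDR had 20.7% against 28.4% (-7.71, -14.0 to -1.43). For cJun the shares were 11.3% and 19.1% (-7.80, -14.0 to -1.58), and for JunB 18.5% and 25.7% (-7.16, -13.4 to -0.969). FOSL2 (20.6% and 26.4%; -5.80, -12.4 to 0.849) and KLF4 (13.7% and 19.3%; -5.60, -11.3 to 0.114) had intervals that included 0. Intervals of the comparison group can supply a factor to each other, and ATF-only regions cannot. These differences too are therefore partly set by the rule. Differences between these factors were not tested.

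Set against all intervals of the series, FOSL2 was the factor whose share near ATF-only regions was closest to the series as a whole, 20.6% against 20.7%. RXR had 19.1% against 32.5%, KLF5 30.4% against 41.8%, VDR 20.7% against 31.3%, JunB 18.5% against 27.7%, cJun 11.3% against 18.9% and KLF4 13.7% against 20.1%. Around ATF2 alone FOSL2 had 21.2%, also near the share of the series, and around ATF7 alone 25.7%. For every other factor, the shares around ATF2 alone and ATF7 alone lay between those of ATF-only regions and of all intervals. These values are descriptions.

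**Figure D4:**
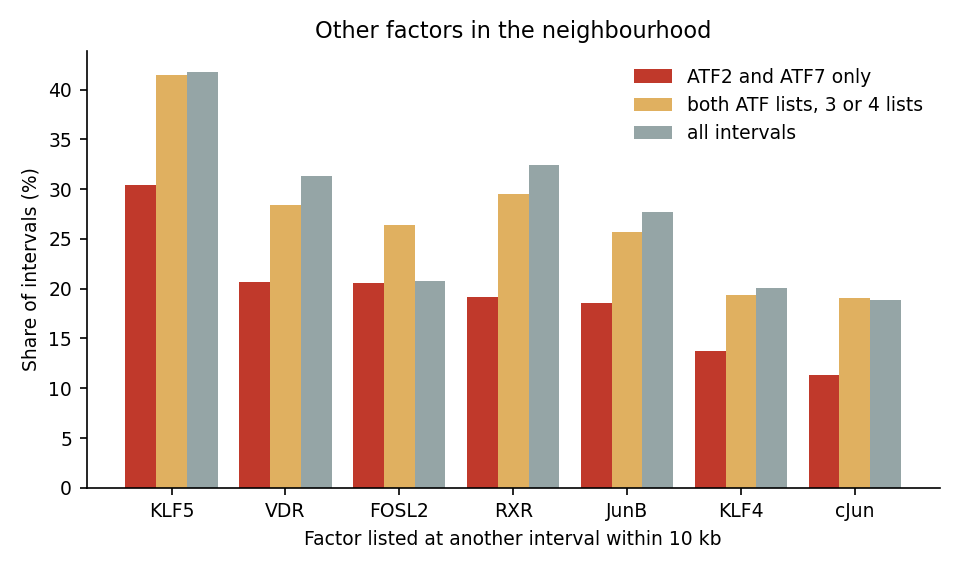
Share (%) of intervals with each of the 7 other factors listed at another interval within 10 kb; red, ATF2 and ATF7 only; yellow, jointly listed intervals in 3 or 4 lists; grey, all intervals. Red is the lowest bar for every factor, by the least for FOSL2 (20.6% against 20.7% for all intervals).

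The ATF lists themselves were examined in the same way. Another ATF2 interval lay within 10 kb of 33.9% of the ATF-only regions, and another ATF7 interval within 10 kb of 25.6%. Among all intervals these shares were 31.3% and 22.8%, around ATF2 alone 35.7% and 26.2%, and around ATF7 alone 37.4% and 28.7%. The comparison group had 39.4% and 31.9% (differences -5.43 points, jackknife interval -10.8 to -0.0968, and -6.29, -12.2 to -0.405). The nearest interval of any kind lay within 10 kb of 749 ATF-only regions, and 55.5% of these neighbours were listed for ATF2 or ATF7. In the comparison group the share was 57.2% (difference -1.64 points, -7.33 to 4.05). ATF2 or ATF7 was listed at 40.5% of all intervals, a share over the intervals themselves and not over nearest neighbours.

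Neighbours of ATF-only regions were more often free of the 7 other factors. This held for 30.6% of the 749 neighbours, against 21.3% in the comparison group, a difference of 9.29 points (jackknife interval 4.65 to 13.9; higher on 15 of 20 chromosomes). That difference is partly set by the rule. An ATF-only neighbour is always free of the 7 other factors, and a neighbour from the comparison group never is. ATF-only regions were 75 of the 749 neighbours, against 33 of 794 in the comparison group. Around ATF2 alone the share of neighbours free of the 7 other factors was 25.6% (difference 4.93, -0.116 to 9.97) and around ATF7 alone 26.8% (3.76, -0.397 to 7.91). Hotspots were 12.4% of the neighbours of ATF-only regions and 17.003% in the comparison group (difference -4.59, -8.24 to -0.929). They were 15.3% around ATF2 alone (-2.92, -6.59 to 0.755) and 12.8% around ATF7 alone (-0.397, -3.41 to 2.62).

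Distances among the ATF-only regions were measured next. Another ATF-only region was within 10 kb of 9.64% of them (127; 95% exact interval 8.10 to 11.4), and the median distance to the next was 249.7 kb. The comparison group, of nearly the same size, had 12.2% (10.5 to 14.1), and the 1311 intervals of ATF7 alone had 9.23%. The difference of -2.59 points from the comparison group had a jackknife interval that included 0 (-8.88 to 3.70), and it changed to 0.151 without chromosome 10. Joining regions within 10 kb left 1190 single regions, 55 pairs, 3 groups of 3 and 2 groups of 4.

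The densest group was on chromosome 5 from 109984287 to 109986852, where 4 ATF-only regions stood within 2566 bp. The only other interval there was also listed for both ATF proteins, and the nearest hotspot was 396.5 kb away. Their places in the row order were unlike: 692 and 786 for the pair with the higher coordinates and 3848 and 4354 for the other pair. The other group of 4, on chromosome 10 from 117243269 to 117259351, spanned 16083 bp with 7 intervals in all, 1 of them a hotspot. Groups of 3 lay on chromosome 6 from 128748861 to 128753522 (343.7 kb from a hotspot), chromosome 10 from 106749722 to 106757818 (107.4 kb) and chromosome 10 from 116683989 to 116688872 (21.9 kb).

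The last comparison was by chromosome. ATF-only regions made up between 18.03% (chromosome 16, 33 of 183; 95% exact interval 12.7 to 24.4) and 45.0% (chromosome X, 18 of 40; 29.3 to 61.5) of the jointly listed intervals. Chromosome 7 had 41.8% (87 of 208; 35.0 to 48.8), chromosome 11 35.2% (90 of 256; 29.3 to 41.3) and chromosome 4 34.2% (66 of 193; 27.5 to 41.4). At the low end with chromosome 16 was chromosome 19 with 20.7% (55 of 266; 16.0 to 26.0). These 6 chromosomes had exact intervals that did not include the overall 27.1%, with no adjustment for the 20 looked at.

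The most ATF-only regions in number were on chromosome 10, 109, where they formed 26.2% (22.0 to 30.7) of the jointly listed intervals. Chromosome 7 held 6.61% of the ATF-only regions, 3.41% of the other jointly listed intervals and 4.53% of all intervals. Hotspots made up 11.7% of its intervals, and 1.15% of its 87 ATF-only regions lay within 10 kb of one. On chromosome 19, where hotspots made up 20.8% of the intervals, 27.3% of the 55 ATF-only regions did. How many hotspots a chromosome has and how many ATF-only regions it has can depend on each other, and their relation was not tested.

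**Figure D5:**
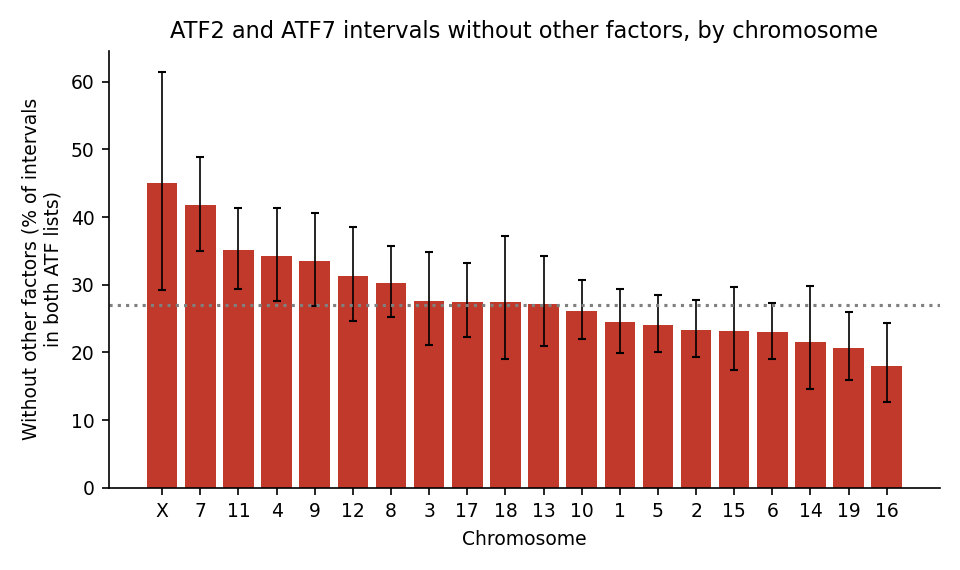
ATF-only regions as a share (%) of the intervals listed for both ATF2 and ATF7, by chromosome in falling order; error bars are 95% exact intervals and the dotted line is the overall 27.1%. Chromosomes X, 7, 11 and 4 lie above the line and chromosomes 19 and 16 below it with their whole interval.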

How the data were processed

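The authors deposited 1 list of intervals per factor, with chromosome, start and end as other values and no score or header. The submitters' processing notes name build mm9 and the tools Bowtie, FastQC and HOMER. No source used here gives their versions, the threshold for a peak or the making of the common intervals. Of 30 labelled samples, 9 had a list and the other 21 were not analysed here. The 2 intervals on chromosome Y were left out. Coordinates are 1-based. Hotspots were intervals in 5 or more lists, and distances run between midpoints and leave out the interval itself. Shares carry exact Clopper-Pearson intervals. The 49 differences carry chromosome jackknife intervals (t distribution, 19 degrees of freedom), unadjusted and with no p-value. The method was tried on simulated data whose true group difference was the same on every chromosome. That trial does not show how well the intervals cover a difference that varies between chromosomes. Members, groups and tests were chosen with earlier results of these data known. Named regions are the first and last 3 by row, the 3 nearest to and farthest from a hotspot and the 5 largest groups, without chromosome 18. The planned motif and promoter counts need an mm9 genome or annotation and were not made, so no sequence is printed. Alternatives changed the overlap rule, hotspot threshold, distance, chromosomes, comparison group and lists. Python 3.11.15, numpy 2.4.6, pandas 2.3.3, scipy 1.17.1 and matplotlib 3.10.9 were used.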

Additional observations from a re-analysis of the deposited data

How the results depend on the processing

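Of 74 alternative values, 65 were counted as unchanged. For row order, nearness to hotspots and other factors nearby, unchanged meant the same direction and an interval that still excluded 0. For neighbours of the same kind it meant the same direction and a change no larger than the main standard error. Counts of ATF-only regions had to stay within a fixed ratio, and the highest chromosome share within its main exact interval. Row order was unchanged under all 13 alternatives that were run (9.72 to 27.6 points). Places within the ATF2 list or within the ATF7 list keep the same order, so the direction could not change under these alternatives. The number of ATF-only regions ran from 1208 to 1698 over 10 alternatives. The share near a hotspot kept its direction in all 20, but its interval included 0 in 5: without the FOSL2 list (-3.35), without the KLF5 list (-6.34), against intervals in 3 lists (-5.99) and, chosen after seeing the data, against ATF2 alone (-3.05) and ATF7 alone (-1.89). Against all other jointly listed intervals it was -13.97. Other factors within 10 kb kept their direction in all 15, but the interval included 0 in the same comparisons with ATF2 alone (-2.28) and ATF7 alone (-1.97). The cause was not tested, and the rule partly sets the difference in other factors nearby, except against single ATF proteins. The difference in neighbours of the same kind (-2.59 points) turned to 0.151 without chromosome 10 and to 7.03 without the FOSL2 list, which also changes the size of both groups. Comparisons with intervals in exactly 2 lists, with single ATF proteins, without chromosomes 6 and 10 and of median distances were added after seeing the data. No stricter peak threshold could be tried, since the lists hold no score. No paired analysis was possible because each factor has 1 library. Depth is unknown, so an absent listing may reflect an interval below the authors' threshold.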

Other observations

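In windows of 5 Mb, the place with the most ATF-only regions was chromosome 10 from 115 to 120 Mb with 45. ATF-only regions were 25.1% of its 179 jointly listed intervals, against 27.1% over all jointly listed intervals. They were 8.44% of its 533 intervals, against 3.79% over all intervals, and it held 86 hotspots. The highest share among windows with at least 40 intervals was on chromosome 7 from 15 to 20 Mb, where 11 of 50 intervals (22.0%) and 11 of 16 jointly listed ones were ATF-only, with 2 hotspots. Over the first 25 Mb of chromosome 7, 23 of 37 jointly listed intervals (62.2%, 95% exact interval 44.8 to 77.5) were ATF-only, against 64 of 171 (37.4%, 30.2 to 45.1) on the rest of it. This stretch was chosen after its values were seen, and the difference was not tested. Chromosome 17 had the next 2 windows, with 8 of 60 intervals from 20 to 25 Mb and 6 of 51 from 55 to 60 Mb.

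Among the 20 first rows that both ATF lists share, 4 were ATF-only. They were the 3 named in the report and chromosome 17 33897400 to 33897799 at place 14, singled out here after its values were seen.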
